A study of Mus musculus with 3 samples.

Results

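The genes of the circadian clock were examined on Affymetrix expression arrays of liver RNA from male mice homozygous for a disrupted apoE gene. The 10 genes were Clock, Arntl, Per1, Per2, Cry1, Cry2, Nr1d2, Dbp, Tef and Nfil3. All probe sets annotated with a single symbol that matched 1 of these names were taken, which gave 13 probe sets of the 10833 with 1 gene symbol, or 10 of 8251 genes. Cry1 had 3 probe sets, Nfil3 had 2 and each of the other genes had 1, and every probe set was kept separately.

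The mice carried a mixed C57BL/6JxOLA129 background, were 3 months old at assignment and ate their diet for 12 weeks. The diets were t10,c12-CLA (trans10,cis12 conjugated linoleic acid, 9 mice assigned), c9,t11-CLA (cis9,trans11 conjugated linoleic acid, 10 mice) and control (linoleic acid, 10 mice), with the test fatty acid at 1.0% by weight and fat at 30% of energy in all. The design text calls the diets semi-purified and the sample labels name a western diet, a difference not resolved here. One array per diet was analysed, and whether it held RNA of 1 mouse or of several, the sources used here do not give. The hour of liver collection and the feeding state at that hour are likewise missing from them. With 1 array per diet, a difference between diets cannot be told apart from a difference between animals or hours of collection, there was no replicate check, and no test between diets was possible. No wild-type liver was included, and all values below apply to livers without apolipoprotein E.

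The circadian clock of mammalian cells is a loop of transcription. CLOCK and BMAL1, the product of Arntl, bind E-box elements and activate the Per and Cry genes, whose proteins return to the nucleus and block that activation. Another loop runs through the ROR element (RORE), where ROR proteins activate and the REV-ERB proteins, among them the product of Nr1d2, repress Arntl, Clock, Cry1 and Nfil3. A further element, the D-box, is activated by DBP and TEF and repressed by the product of Nfil3. In mouse liver the transcripts of Dbp, Nr1d2 and Tef are highest in the later part of the day, while those of Arntl, Clock and Nfil3 are highest toward the end of the night, so that the 2 sets run in opposite phase. The liver clock drives daily rhythms of bile acid, glucose and lipid metabolism and is reset by the hour of feeding.

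Values are MAS5 signals as deposited, hybridisation intensities on a linear scale, and signals of different probe sets cannot be set against each other. A floor was taken at the pooled median of all signals, 490.3, and a probe set was counted as measured in a comparison when it was above the floor on both arrays. Of the 13 clock probe sets, 6 were above the floor on all 3 arrays (Per1, Cry1 94420_f_at, Cry2, Nr1d2, Dbp and Tef), 4 on some arrays (Clock, Arntl and both of Nfil3) and 3 on none (Per2 and the Cry1 probe sets 94421_r_at and 161225_r_at). Measured probe sets passed a filter on signal, and those near the floor passed only through the arrays where they were bright, so counts over them are not counts over all clock probe sets.

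**Figure D1:**
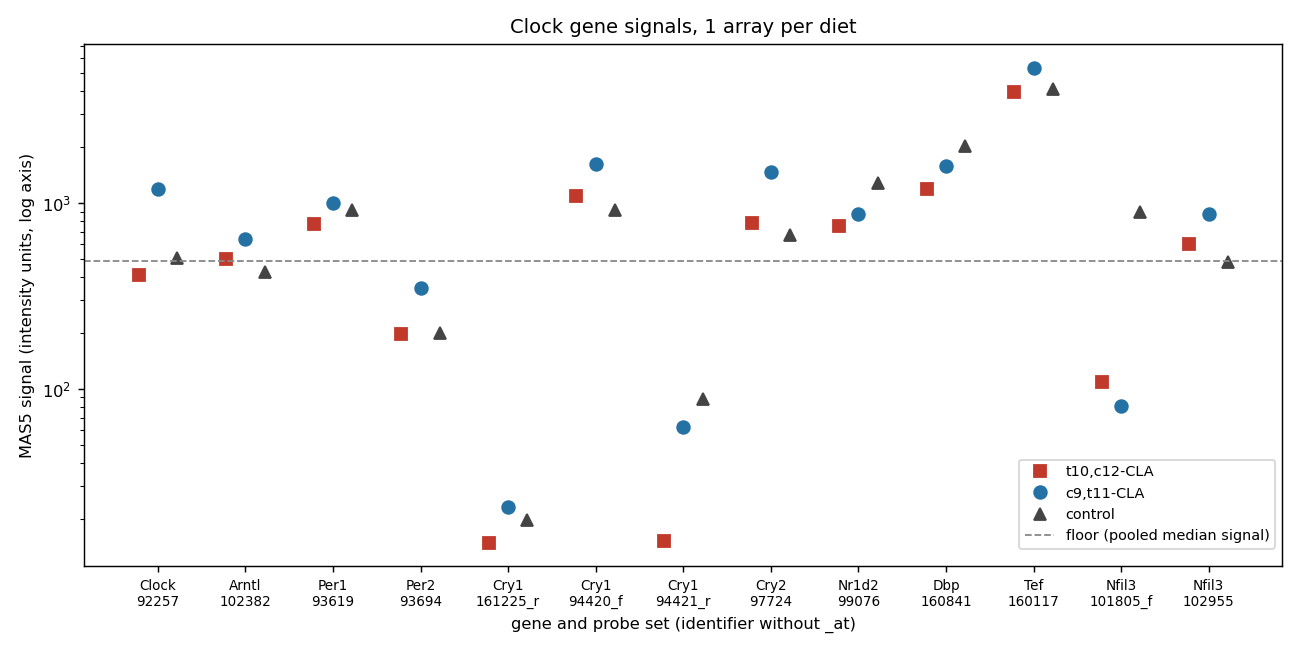
MAS5 signal (log axis) of each clock gene probe set on the t10,c12-CLA (squares), c9,t11-CLA (circles) and control (triangles) arrays, with the floor of 490.3 as a dashed line. Clock, Cry1 94420_f_at and Cry2 have their highest signal on the c9,t11-CLA array, Nr1d2 and Dbp on the control array, and the Nfil3 probe sets lie on opposite sides of the floor on the control array and on both CLA arrays.

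The arrays had median signals of 486.5 (t10,c12-CLA), 523.5 (c9,t11-CLA) and 457.2 (control), with between 6074 and 6443 of 12488 probe sets above the floor. Marker genes were summed over 1 probe set per gene, the brightest, so that bright genes weigh most. The 5 hepatocyte markers on the array were above the floor on all arrays and summed to 113535 on t10,c12-CLA, 238908 on c9,t11-CLA and 115419 on control. Most of the excess on c9,t11-CLA was that of Alb, at 31244, 101163 and 28437 on these arrays, while Ttr went the other way, at 21645, 9385 and 17983. The 7 macrophage markers were also above the floor on all arrays, with sums of 76275, 42995 and 47591. The 5 stellate cell markers summed to 9154, 6832 and 8163, a sum that leaves out the dimmer collagen probe sets. Over all 6 measured stellate probe sets the median log2 difference was 0.84 on t10,c12-CLA against control, with 4 higher and 2 lower. Past 2-fold were 2, Col1a1 94305_at at 1.99 and Col1a2 101130_at at 1.25, while Col1a2 161156_r_at stood at -0.10 and Acta2 at -0.01. Des, below the floor on t10,c12-CLA and so not among the 6, gave 351.9 there and 698.9 on control, at least 1.43-fold lower. The 3 endothelial markers summed to 3073, 3472 and 1977. Among them Kdr was nearly level, at 683.7, 690.8 and 716.1, while Cdh5 gave 1495, 1762 and 1080. Pecam1 gave 894.2, 1020 and 181.7, the last far below the floor. The 2 adipocyte markers, 1 of which passed the floor on any array, summed to 1195, 829.5 and 629.9. No bile duct marker and 1 of 3 lymphocyte markers on the array passed the floor on any array. The clock genes are expressed in all of these cell types, fewer cells of a type and less RNA per cell cannot be told apart in bulk liver, and the part of these shifts in the clock gene differences was not tested.

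The sequences around the starts of these genes show which elements of the loops lie there. RefSeq promoter windows of build GRCm38.p6, from 250 bases before to 50 after a start site, were found for 9 of the 10 genes, 14 windows in all. The E-box CACGTG, the D-box TTANGTAA and an RORE core, TAGGTCA, were searched on both strands, and capitals mark the matches. The E-box was found in 4 windows of 3 clock genes, Per1, Cry1 and Tef, and in 7.15% of all 32851 windows of the same length. The RORE core was found in 2 windows, of Arntl and Nfil3, and in 2.61% of all windows. A looser form, TNGGTCA, which contains the stricter one, was found in 5 windows of 4 clock genes, Arntl, Cry2, Tef and Nfil3, and in 11% of all windows. The D-box was found in none of the 14 windows, against 2.32% of all windows. No E-box, D-box or RORE core was found in the windows of Clock, Cry2, Nr1d2 and Dbp, which says nothing of elements outside them. The windows below show the E-box copies of a repressor of each family and of an output gene, and the RORE core of the 2 genes that hold it.
Per1, chr11:69098699-69098998, plus strand: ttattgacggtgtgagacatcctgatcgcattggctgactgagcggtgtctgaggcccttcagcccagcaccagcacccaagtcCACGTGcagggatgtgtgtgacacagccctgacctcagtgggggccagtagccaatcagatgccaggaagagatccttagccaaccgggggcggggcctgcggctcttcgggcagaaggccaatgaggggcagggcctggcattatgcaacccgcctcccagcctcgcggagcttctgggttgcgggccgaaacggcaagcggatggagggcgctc
Cry1, chr10:85185005-85185304, minus strand: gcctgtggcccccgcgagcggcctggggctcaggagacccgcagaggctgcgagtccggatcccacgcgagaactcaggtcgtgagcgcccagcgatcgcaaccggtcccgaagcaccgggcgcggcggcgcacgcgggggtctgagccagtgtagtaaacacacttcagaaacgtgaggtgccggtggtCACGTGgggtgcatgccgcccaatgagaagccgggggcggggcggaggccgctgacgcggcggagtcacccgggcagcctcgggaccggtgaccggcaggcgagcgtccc
Tef, chr15:81811164-81811463, plus strand: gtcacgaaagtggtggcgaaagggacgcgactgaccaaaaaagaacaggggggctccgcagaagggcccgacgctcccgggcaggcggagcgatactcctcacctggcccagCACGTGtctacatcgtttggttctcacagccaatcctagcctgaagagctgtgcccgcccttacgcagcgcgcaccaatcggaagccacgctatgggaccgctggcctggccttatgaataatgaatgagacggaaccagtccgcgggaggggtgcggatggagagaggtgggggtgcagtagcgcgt
Arntl, chr7:113207261-113207560, plus strand: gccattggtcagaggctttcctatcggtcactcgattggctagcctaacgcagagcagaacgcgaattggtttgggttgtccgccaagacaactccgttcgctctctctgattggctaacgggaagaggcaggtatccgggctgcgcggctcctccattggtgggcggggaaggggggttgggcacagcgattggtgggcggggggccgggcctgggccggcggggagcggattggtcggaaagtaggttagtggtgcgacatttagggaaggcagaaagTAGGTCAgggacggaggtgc
Nfil3, chr13:52980990-52981289, minus strand: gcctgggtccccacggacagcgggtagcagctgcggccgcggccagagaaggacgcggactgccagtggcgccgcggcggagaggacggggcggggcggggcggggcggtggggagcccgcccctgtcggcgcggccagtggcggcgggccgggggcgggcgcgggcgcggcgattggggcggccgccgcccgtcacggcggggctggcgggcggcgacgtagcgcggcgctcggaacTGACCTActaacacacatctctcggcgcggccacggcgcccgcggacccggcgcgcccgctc
Counted from the start site, the E-box begins at -166 in Per1, -60 in Cry1 and -138 in Tef, and the RORE core at 31 in Arntl and -12 in Nfil3, where it lies on the opposite strand.

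On the c9,t11-CLA array the activator Clock and both cryptochromes were higher than on the control array, and Nr1d2 was lower. The output genes Dbp and Tef differed less and in opposite directions, Dbp lower and Tef higher. Of the 7 measured clock probe sets, 2 were at least 2-fold higher, Clock and Cry2, where 3.25% of all 5480 measured probe sets were at least 2-fold higher. None was 2-fold lower, where 2.81% of all were. Higher by any amount were 5 of the 7, against 52.8% of all measured probe sets, and the median log2 difference of the 7 was 0.38, against 0.03 over all. That median depended on which clock probe sets were measured: it was 0.70 over 10 with the floor at the pooled 25th percentile, 0.25 over 6 without probe sets marked for possible cross-hybridisation or incomplete probe selection, and 0.01 over 2 with the floor at the pooled 75th percentile.

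Clock, whose product pairs with BMAL1 on the E-box, gave a signal of 1187 on c9,t11-CLA and 509.2 on control. That is 2.33-fold higher, a log2 difference of 1.22, and 1.5% of all measured probe sets had a larger one. The control signal lay just above the floor of 490.3. In the band where Clock lay, with a mean signal of 1 to 2 times the floor, 6.4% of 1313 probe sets were past 2-fold in either direction. Arntl, which encodes BMAL1 and carries the RORE core shown above, gave 640.5 on c9,t11-CLA and 423.1 on control, below the floor. It was at least 1.31-fold higher on c9,t11-CLA, counted from the floor.

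Among the repressors, Cry2 gave 1472 on c9,t11-CLA and 670.5 on control, 2.20-fold higher, with a log2 difference of 1.13 that became 0.94, short of 2-fold, when the arrays were scaled to equal medians. Cry1, by 94420_f_at, gave 1630 and 914.4 on these arrays, a log2 difference of 0.83. The suffix of that probe set marks possible cross-hybridisation with related sequences, and the other Cry1 probe sets, between 19.7 and 88.4 on both arrays, lay far below the floor. Both cryptochromes, which bind CLOCK and BMAL1 and block them, thus had their measured probe sets higher on c9,t11-CLA. Per1, a partner of the cryptochromes whose promoter window holds the E-box shown above, gave 995.4 on c9,t11-CLA and 917.0 on control. Its log2 difference of 0.12 became -0.08 with the arrays scaled to equal medians and -0.01 after quantile normalization. Per2 gave 348.4 on c9,t11-CLA and 200.3 on control, both below the floor, so no fold is given.

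Nr1d2, the REV-ERB beta repressor of RORE genes, gave 872.6 on c9,t11-CLA and 1282 on control, 1.47-fold lower. Dbp, the D-box activator, gave 1577 on c9,t11-CLA and 2017 on control, 1.28-fold lower. These log2 differences were -0.56 and -0.36, with 12.1% and 21.4% of all measured probe sets lower still. Tef, the close relative of Dbp, went the other way, with 5340 on c9,t11-CLA and 4106 on control, a log2 difference of 0.38. Dbp and Tef thus differed by 0.73 in their log2 differences, a contrast within the same arrays that no scaling factor between the arrays alters.

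The probe sets of Nfil3, the D-box repressor with an RORE core in its promoter window, disagreed. By 102955_at it gave 870.8 on c9,t11-CLA and 483.0 on control, at least 1.78-fold higher. By 101805_f_at it gave 81.3 on c9,t11-CLA and 891.5 on control, at least 1.82-fold lower. The identifier 101805_f_at carries the mark for possible cross-hybridisation, and no direction is drawn for Nfil3.

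**Figure D2:**
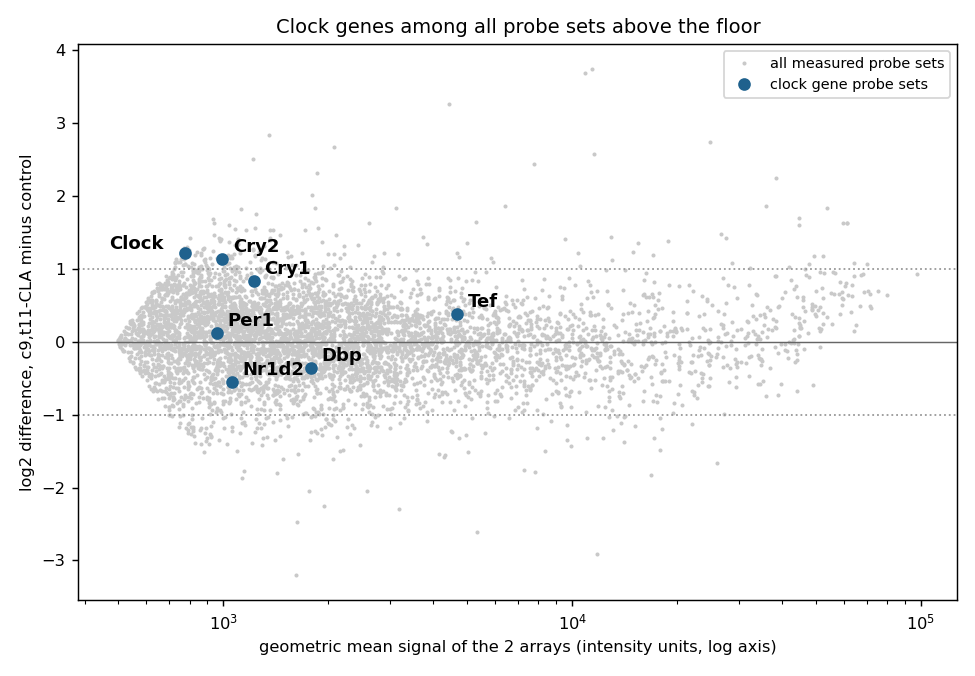
Log2 difference between the c9,t11-CLA and control arrays against the geometric mean signal of these arrays (log axis) for all 5480 probe sets above the floor on both (grey) and the 7 clock gene probe sets among them (blue), with dotted lines at 2-fold. Clock at 1.22 lies on the edge that the floor draws on the left, Cry2 at 1.13 and Cry1 at 0.83 lie near the upper side, and Dbp, Nr1d2, Per1 and Tef lie within the bulk of probe sets.

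On the t10,c12-CLA array the clearest differences from the control array were lower signals of Dbp and Nr1d2, and no measured clock probe set was past 2-fold. Of the 6 measured, 0 were higher by at least 2-fold and 0 were lower by that much, where 2.18% and 1.9% of all 5584 measured probe sets were. Lower by any amount were 4 of the 6, against 50.7% of all, and the median log2 difference was -0.15, against -0.01 over all, with values between -0.25 and -0.04 under the alternatives run.

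Dbp gave 1191 on the t10,c12-CLA array and 2017 on the control array, 1.69-fold lower. Nr1d2 gave 756.8 on t10,c12-CLA and 1282 on control, also 1.69-fold lower. Both had a log2 difference of -0.76, and 4.41% of all measured probe sets were lower than Dbp and 4.37% lower than Nr1d2. Tef gave 3942 on t10,c12-CLA and 4106 on control, a log2 difference of -0.06, so that Tef and Dbp again stood apart, by 0.70. Per1 gave 773.3 on t10,c12-CLA and 917.0 on control, with a log2 difference of -0.25.

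The cryptochromes stood a little above control on this array. Cry1 gave 1096 on t10,c12-CLA and 914.4 on control, and Cry2 gave 784.1 and 670.5 on the same arrays, log2 differences of 0.26 and 0.23. Clock gave 409.7 on t10,c12-CLA, below the floor, and 509.2 on control, at least 1.04-fold lower. Arntl gave 500.0 on t10,c12-CLA, just above the floor, and 423.1 on control, below it, at least 1.02-fold higher. These bounds are too near 1 to give either activator a direction. Per2 gave 198.1 on t10,c12-CLA and 200.3 on control, both below the floor. Nfil3 was at least 1.23-fold higher by 102955_at, with 604.2 on t10,c12-CLA and 483.0 on control, and at least 1.82-fold lower by 101805_f_at, with 109.5 and 891.5 on these arrays.

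Both CLA arrays were compared with the same control array, so a low or high control signal enters both differences. Dbp and Nr1d2 had log2 differences of -0.36 and -0.56 on c9,t11-CLA beside -0.76 and -0.76 on t10,c12-CLA, and for both genes the control array held the highest of the 3 signals. Cry1 and Cry2 had 0.83 and 1.13 on c9,t11-CLA beside 0.26 and 0.23 on t10,c12-CLA, and for both genes the control array held the lowest. Within the arrays, the log2 difference of Cry1 exceeded that of Dbp by 1.19 on c9,t11-CLA and by 1.02 on t10,c12-CLA, and that of Nr1d2 by 1.39 and 1.02. These contrasts set a cryptochrome against an output gene and an RORE repressor, and do not depend on a scaling factor between arrays. The Cry1 window held neither form of the RORE, and whether Nr1d2 acted on Cry1 was not tested. The contrasts pair genes high and low in the range, and the measured Cry1 probe set is marked for possible cross-hybridisation. For Cry2, by an unmarked probe set, the contrasts were 1.49 and 0.99 with Dbp and 1.69 and 0.99 with Nr1d2. Tef, an output gene of the same phase as Dbp, also exceeded Dbp, by 0.73 and 0.70. The contrast with Dbp thus does not stand for output genes in general.

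As their names say, the isomers carry their cis and trans double bonds at different carbons, and dose and duration were the same. On the t10,c12-CLA array all 8 measured clock probe sets had lower signals than on the c9,t11-CLA array, against 54.6% of all 5567 measured probe sets. None of the 8 was 2-fold lower or 2-fold higher, where 2.73% of all were 2-fold lower and 3.47% 2-fold higher. The 8 log2 differences ran between -0.91 for Cry2 and -0.21 for Nr1d2, with a median of -0.42 against -0.05 over all. After Cry2 came Cry1 at -0.57, Nfil3 102955_at at -0.53, Tef at -0.44, Dbp at -0.40, Per1 at -0.36 and Arntl at -0.36. The Arntl signal on t10,c12-CLA, 500.0, lay just above the floor. The other Nfil3 probe set, 101805_f_at, lay below the floor on both arrays, at 109.5 on t10,c12-CLA and 81.3 on c9,t11-CLA. No direction is drawn for Nfil3 here either. Clock gave 409.7 on t10,c12-CLA, below the floor, and 1187 on c9,t11-CLA, at least 2.42-fold lower. No interval for these isomer differences can be given with 1 array each.

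The differences were set beside the disagreement of probe sets of the same gene, a spread that includes error of measurement and of probe choice and leaves out how mice vary. The SD of a log2 difference taken this way was 0.50 for c9,t11-CLA against control over 679 pairs, 0.39 for t10,c12-CLA against control over 726 pairs and 0.49 between the isomers over 707 pairs. Clock and Cry2 on c9,t11-CLA were over 2 of these SDs away from 0. Between 1 and 2 SDs away were Cry1 and Nr1d2 on c9,t11-CLA, Dbp and Nr1d2 on t10,c12-CLA, and Cry1, Cry2 and Nfil3 102955_at between the isomers. Per1 was less than 1 SD away in all 3 comparisons, and so was Tef. Also less than 1 SD away were Dbp on c9,t11-CLA, Cry1 and Cry2 on t10,c12-CLA, and Dbp, Nr1d2 and Arntl between the isomers.

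**Figure D3:**
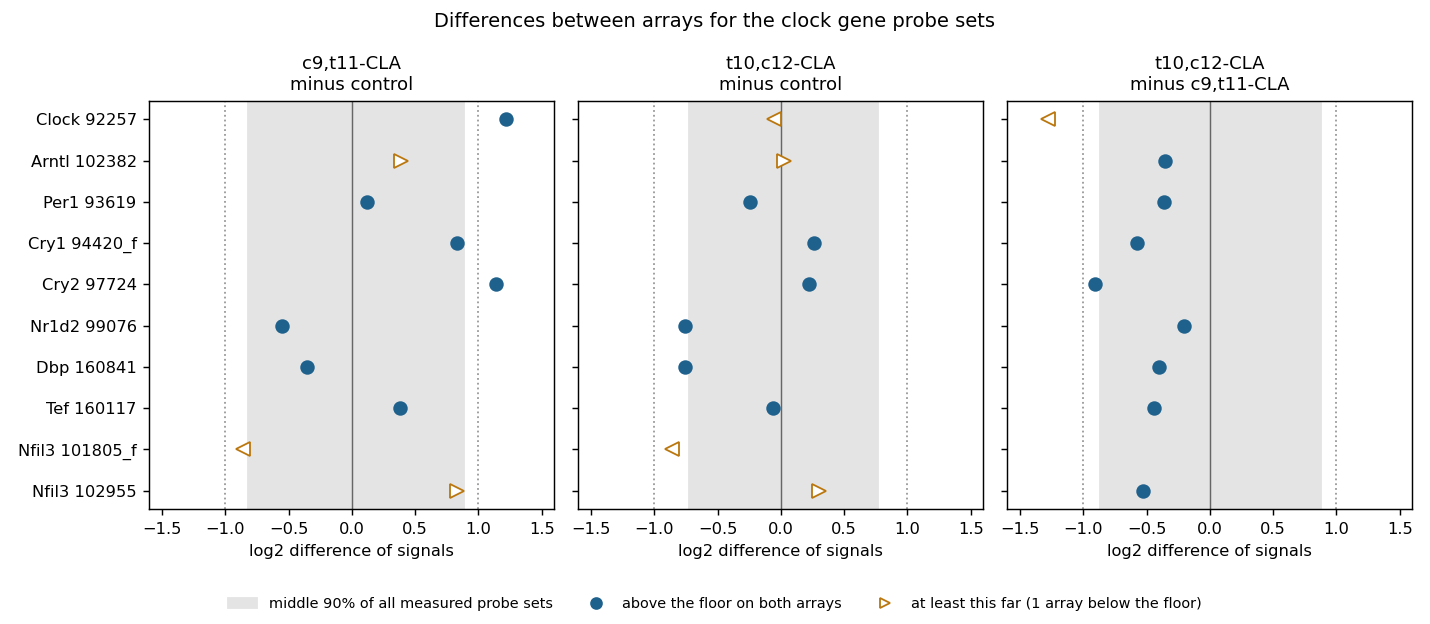
Log2 differences of the clock gene probe sets in the 3 comparisons, each with 1 array per diet. Filled points passed the floor on both arrays, open triangles are bounds where 1 array was below the floor, grey spans the middle 90% of all measured probe sets, and dotted lines mark 2-fold. Clock and Cry2 lie past 2-fold on c9,t11-CLA, Dbp and Nr1d2 lie at the lower edge of the grey span on t10,c12-CLA, and all symbols plotted for the isomer comparison lie below 0.

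Of 25 other clock genes, 14 were on the array with 22 probe sets. Past 2-fold in either direction were 0 of 14 measured probe sets on c9,t11-CLA against control, 0 of 15 on t10,c12-CLA against control and 0 of 14 between the isomers, where 6.06%, 4.08% and 6.2% of all measured probe sets were, shares that come to less than 1 probe set in a list of this length. On c9,t11-CLA 9 of 14 were higher than on control, against 52.8% of all, with a median log2 difference of 0.32. On t10,c12-CLA 11 of 15 were higher, against 49.2% of all, with a median of 0.11. Between the isomers the signs were mixed: 9 of 14 were lower on t10,c12-CLA and 5 higher, against 54.6% of all lower, with a median of -0.20. Nr1d1, which encodes REV-ERB alpha, gave 2359 on t10,c12-CLA, 3480 on c9,t11-CLA and 3556 on control, log2 differences from control of -0.59 and -0.03. It was thus below control on the array where its relative Nr1d2 was lowest, while on c9,t11-CLA the relatives stood at -0.03 and -0.56. Per3, a period gene, gave 1482 on t10,c12-CLA, 1229 on c9,t11-CLA and 974.4 on control, log2 differences of 0.60 and 0.33.

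The promoter window of Per3 held 2 copies of the D-box on which DBP and TEF act, beginning at -205 and -158, and is shown because these are the only D-box copies in the windows of the clock genes printed here. The windows of Nr1d1 and of the liver targets Usp2 and Noct, described below, were searched too and held no E-box, D-box or RORE core. Windows of the remaining listed genes were not searched one by one.
Per3, chr4:151044616-151044915, minus strand: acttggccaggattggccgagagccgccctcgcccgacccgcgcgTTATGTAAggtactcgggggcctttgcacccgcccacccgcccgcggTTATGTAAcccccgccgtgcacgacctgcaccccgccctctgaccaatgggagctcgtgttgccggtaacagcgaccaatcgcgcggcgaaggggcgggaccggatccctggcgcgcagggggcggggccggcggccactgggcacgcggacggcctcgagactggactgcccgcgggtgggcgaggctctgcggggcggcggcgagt
Among regulators of protein stability, Btrc and Fbxw11, the F-box proteins that direct the breakdown of PER proteins, had log2 differences on c9,t11-CLA of 0.97 and 0.93 for the Btrc probe sets 160790_s_at and 96224_at and of 0.93 for Fbxw11 160764_at. The second probe set of Fbxw11, 93634_at, was at least 2.0-fold lower there, so that gene has no settled direction. Timeless gave 1192 on c9,t11-CLA and 605.7 on control, 0.98 on the log2 scale. Csnk1d, a kinase of PER proteins, stood at 0.48 and 0.31 on c9,t11-CLA and at 0.50 and 0.76 on t10,c12-CLA by its brighter probe sets 97262_at and 97263_s_at. Bhlhe40, an E-box repressor, stood at -0.52 on c9,t11-CLA and 0.11 on t10,c12-CLA. Rora, an activator at ROREs, stood at -0.10 and -0.31 by 101889_s_at, a probe set marked for possible cross-hybridisation. The unmarked Rora probe set, 101888_at, lay below the floor on all arrays, at 74.5 on t10,c12-CLA, 67.8 on c9,t11-CLA and 17.9 on control.

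Of 18 liver genes under clock control, 12 were on the array, and 2-fold or more higher were 4 of 15 measured probe sets on c9,t11-CLA and 3 of 15 on t10,c12-CLA, beside 3.25% and 2.18% of all. Their medians were 0.36 and 0.14. Both probe sets of Usp2, a ubiquitin protease with a strong daily rhythm in liver, were among them on c9,t11-CLA. Usp2 92820_at gave 2899 on t10,c12-CLA, 4621 on c9,t11-CLA and 1488 on control, and 92821_at gave 2216, 3202 and 1084 on these arrays. Their log2 differences from control were 1.63 and 1.56 on c9,t11-CLA and 0.96 and 1.03 on t10,c12-CLA. Noct, a rhythmic liver protein also called nocturnin, gave 4960 on t10,c12-CLA, 4797 on c9,t11-CLA and 2090 on control by 99535_at, 2.37-fold and 2.30-fold higher. Its other measured probe set, 101787_f_at, stood at 0.57 and 0.46 on the log2 scale.

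The remaining targets differed among themselves. The fourth probe set past 2-fold on c9,t11-CLA was that of Cyp2b10, a cytochrome of foreign-compound metabolism that is under the control of the PAR bZIP proteins DBP and TEF, at 3.26 on c9,t11-CLA and 1.10 on t10,c12-CLA. Between the isomers it was the 1 of 15 past 2-fold, at -2.17, where 6.2% of all measured probe sets were, a similar share. On t10,c12-CLA the 3 past 2-fold were Cyp2b10, Noct 99535_at and Usp2 92821_at. Nr1i3, the nuclear receptor that activates Cyp2b10 and is itself a target of those proteins, lay between -0.84 and -0.23 in its 3 probe sets on both CLA arrays. Cyp7a1, the rate-limiting enzyme of bile acid synthesis, stood at -0.30 on c9,t11-CLA and -0.72 on t10,c12-CLA, Nampt, an enzyme of NAD synthesis, at -0.37 and -0.57, and Alas1, of haem synthesis, at 0.07 and 0.00.

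**Figure D4:**
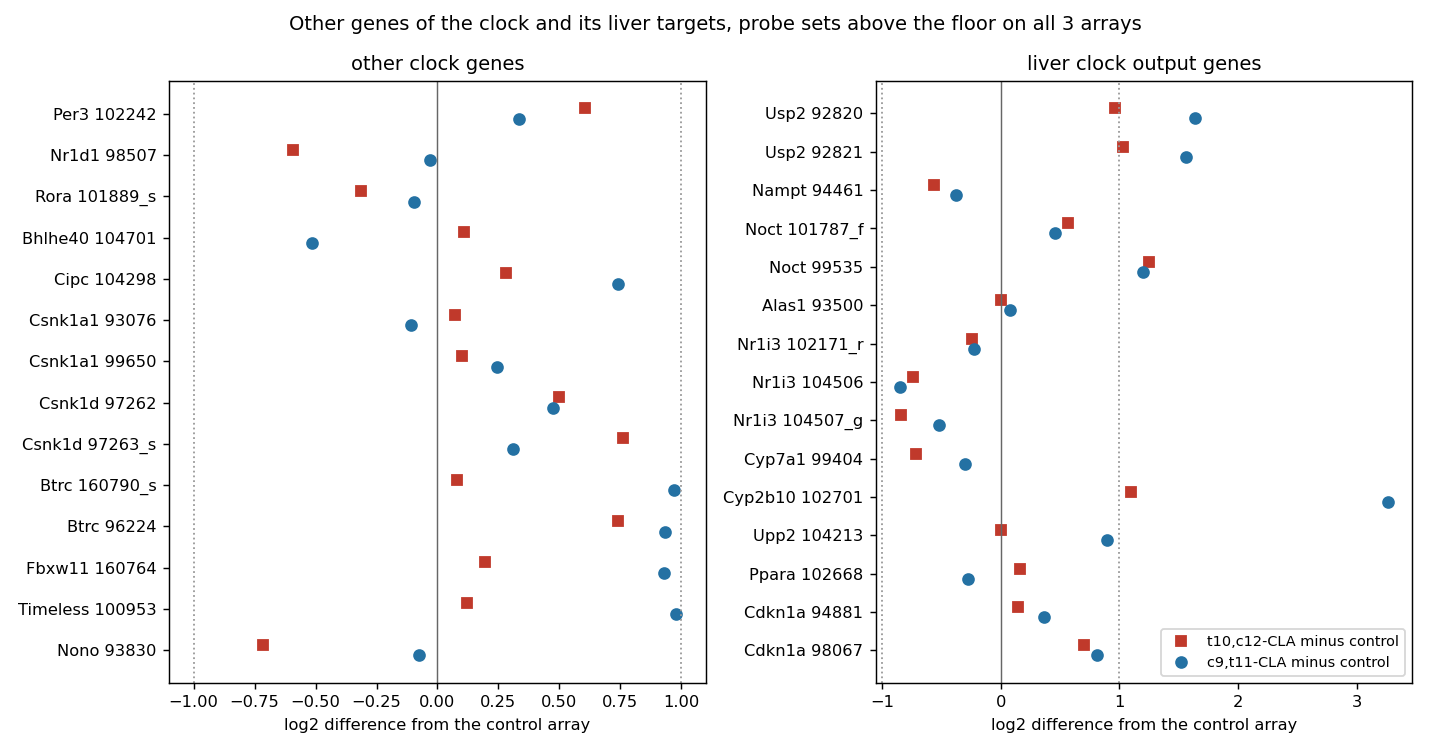
Log2 differences from the control array of the t10,c12-CLA array (squares) and the c9,t11-CLA array (circles) for probe sets above the floor on all 3 arrays, with other genes of the clock on the left and liver targets of the clock on the right. On the left every point lies within 2-fold, and on the right Usp2, Noct 99535_at and Cyp2b10 lie near or past the 2-fold line at 1 on both CLA arrays.

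Genes that glucocorticoids, fasting or acute stimuli induce in liver were looked at because Per1 is among the genes such stimuli act on. Of the glucocorticoid and fasting list, 5 of 13 measured probe sets were at least 2-fold higher on c9,t11-CLA and 5 of 13 on t10,c12-CLA, beside the same 3.25% and 2.18% of all, with medians of 0.75 and 0.28. Past 2-fold on both arrays were 3 of them: Gadd45g, a stress-inducible gene with a control signal of 507.5 near the floor, at 2.83 on c9,t11-CLA and 3.34 on t10,c12-CLA, Igfbp1 by a probe set marked for possible cross-hybridisation at 1.64 and 2.55, and G6pc, the last enzyme of glucose production, at 1.24 and 1.78. The metallothioneins Mt1 and Mt2 were past 2-fold on c9,t11-CLA alone, with Mt1 at 1.08 on c9,t11-CLA and 0.10 on t10,c12-CLA and Mt2 at 1.18 and 0.28. The phosphatase Dusp1 and Pdk4, a kinase that restrains glucose oxidation, were past it on t10,c12-CLA alone, with Dusp1 at 0.62 on c9,t11-CLA and 1.07 on t10,c12-CLA and Pdk4 at 0.03 and 1.01. Ddit4, a glucocorticoid and stress target below the floor on control, was higher on both CLA arrays, by at least 8.36-fold on c9,t11-CLA and 8.05-fold on t10,c12-CLA. Pck1, of glucose production, stood at 0.78 and -0.23. Between the isomers it was the 1 of 14 past 2-fold, at -1.01, where 6.2% of all measured probe sets were, a similar share. Fkbp5, a glucocorticoid target, stood at 0.75 and 0.29, and Sgk1 at -0.60 and 0.06. Of the immediate early list, 1 of 7 measured probe sets was at least 2-fold higher on each CLA array, that of Btg2, at 1.18 and 1.27. Per1, at 0.12 and -0.25, was short of 2-fold on both CLA arrays. So were other genes of these lists, among them Fosb at 0.41 and 0.14, Egr1 98579_at at -0.62 and -0.60 and Tat at 0.62 and -0.33. Whether such stimuli acted on Per1 was not tested.

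The clock gene with the widest range among those above the floor on all arrays was Cry2, at 1.13 on the log2 scale. By the distance between the pairs of log2 differences from control, the 3 most similar of 4160 genes were Nfkb2, Strn4 and Dgcr6, at distances of 0.04, 0.05 and 0.07. The measure rests on 3 arrays and is a description of them.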

How the data were processed

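Liver RNA of 3 groups, 1 array each, was labelled as biotinylated cRNA from 8 µg of total RNA, per the labels' protocols. The authors deposited MAS5 signals, intensities on a linear scale, per the submitters' processing notes. The MAS5 version, detection calls and probe intensities were not used here. All arrays shared a 2%-trimmed mean of 1501, a sign of scaling before deposit, and none was added here.

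Of 12488 probe sets, 66 array controls were left out. Of the others 10833 had 1 symbol, 396 several and 1193 none, and symbols were updated through Entrez identifiers in a RefSeq gene table. Differences were taken on the log2 scale between probe sets above the floor of 490.3. Where 1 array was below it, an at-least fold was taken from the floor. A 2-fold difference was counted, with no test, since each diet had 1 array, and the number of arrays limits the precision.

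The clock genes, the other gene lists and the sizes were chosen with earlier results of these data known. Of the gene lists other than cell type markers, genes past 2-fold in any comparison and genes with a role in the clock were named, and further named genes, markers included, were chosen after their values were seen. So was the stricter RORE form. Alternatives were equal medians, quantile normalization, other floors (the pooled 25th or 75th percentile), a pseudocount of 50, leaving out probe sets marked for possible cross-hybridisation or incomplete probe selection, and means over probe sets of a gene. The counting was tested on simulated data with changes larger than 2-fold in probe sets well above the floor. Its noise was smaller than the disagreement of probe sets of the same gene. It thus does not test calls near the floor or near 2-fold. Python 3.11.15, numpy 2.4.6, pandas 2.3.3 and matplotlib 3.10.9 were used.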

Additional observations from a re-analysis of the deposited data

How the results depend on the processing

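With the arrays scaled to equal medians, 1 clock probe set, Clock at 1.03, was past 2-fold on c9,t11-CLA against control, in place of 2, because Cry2 stood at 0.94. That scaling moved the median of all measured probe sets by -0.18, and relative to this median Cry2 stood at 1.08 under it and 1.10 without it. It also turned the split of all probe sets past 2-fold to 102 higher and 284 lower on c9,t11-CLA against control (178 and 154 without it), 94 and 149 on t10,c12-CLA against control (122 and 106) and 259 and 97 between the isomers (193 and 152). With the floor at the pooled 75th percentile, 0 clock probe sets were past 2-fold on c9,t11-CLA, but only 2 of the 7 were then measured. With the floor at the pooled 25th percentile, 1 was past 2-fold between the isomers, because Clock, at -1.53, was then measured. The median over clock probe sets on c9,t11-CLA against control, 0.38, was 0.70 with the floor at the 25th percentile, 0.012 with the floor at the 75th and 0.25 with marked probe sets left out. On t10,c12-CLA against control, -0.15 became -0.088 after quantile normalization, -0.037 and -0.059 with the 25th and 75th percentile floors and -0.25 with marked probe sets left out. These floors and filters also change which probe sets are counted. Between the isomers the median lay between -0.48 and -0.32 under the alternatives run. All 106 recomputed values of single clock probe sets moved by less than the disagreement of probe sets of the same gene. Another floor or leaving out marked probe sets cannot alter the difference of a single probe set. Equal medians shift all probe sets of a comparison alike, so the small moves are no check of single values. Of the 106 values, 2 changed sign, both for Per1 on c9,t11-CLA. The other clock genes had 0 probe sets past 2-fold in all 3 comparisons under either scaling. Averaging probe sets changed no clock gene median, since no clock gene had more than 1 measured. No paired analysis was possible because each diet had 1 array. Signals below the floor limit what can be said of Per2, Clock, Arntl and Nfil3.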
